A study of Mus musculus with 6 samples.

Results

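miR-26a and miR-26b are 2 closely related microRNAs of vertebrates. The liver read-count table was searched for their 5 mature arms by name, and all 5 of its 1907 mature microRNAs with these names were found: mmu-miR-26a-5p, mmu-miR-26a-1-3p, mmu-miR-26a-2-3p, mmu-miR-26b-5p and mmu-miR-26b-3p (mmu-, for Mus musculus, is left out from here on). The table comes from small RNA sequencing of whole liver, with 1 library for each of 6 males of mixed strain background. The mice are given as 12 weeks old, and livers were taken at the end of 4 weeks of feeding. Over these weeks the regular group (n = 3) was kept on granulated regular chow. The soy group (n = 3) had granulated chow made of 75% regular food and 25% soy bean powder. The comparison asks whether the soy-enriched diet alters liver microRNAs. In such bulk samples, fewer cells of a type and less RNA per cell cannot be told apart.

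A microRNA hairpin is cut into a short duplex with a 5p and a 3p arm. The arm that Argonaute keeps, the guide, finds messenger RNAs through its seed, bases 2 to 8, and lowers their translation or stability, while the other arm, the passenger, is mostly degraded. miR-26a is abundant in adult hepatocytes and is known from mouse studies to slow the cell cycle, to restrain liver tumours driven by MYC and to raise hepatic insulin sensitivity under a fat-rich diet.

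The mature arms are shown because the seed decides which of them can bind the same targets. The sequences are those of RefSeq on GRCm38.p6, in which all 5 names were matched, written 5′ to 3′ with the seed in capitals.
miR-26a-5p: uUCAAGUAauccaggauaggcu
miR-26b-5p: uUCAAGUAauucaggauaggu
miR-26a-1-3p: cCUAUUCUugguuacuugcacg
miR-26a-2-3p: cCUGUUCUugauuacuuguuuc
miR-26b-3p: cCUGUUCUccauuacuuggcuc
The 5p arms share 1 seed, UCAAGUA, which pairs with the site UACUUGA. Compared without gaps over 21 bases from the 5′ end, they differed by C11U and C21U (the base of miR-26a-5p first), and miR-26a-5p is 1 base longer. Among the 3p arms, miR-26a-2-3p and miR-26b-3p share the seed CUGUUCU and differ at 4 of 22 bases (U9C, G10C, U19G and U20C, counted from the 5′ end), whereas miR-26a-1-3p has a seed of its own that differs from theirs by A4G. Both 5p arms start with U and the 3 passenger arms with C. With so few differences between the 5p arms, reads with an error or a trimmed end can be moved from one name to the other, and how the authors assigned them is not given in the sources used here.

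The arms come from 3 hairpins, shown with both mature arms in capitals.
Mir26a-1: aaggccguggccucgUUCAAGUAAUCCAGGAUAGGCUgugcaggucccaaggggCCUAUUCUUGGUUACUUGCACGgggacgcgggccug
Mir26a-2: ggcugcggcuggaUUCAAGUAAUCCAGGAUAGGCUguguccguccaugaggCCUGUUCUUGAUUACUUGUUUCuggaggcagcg
Mir26b: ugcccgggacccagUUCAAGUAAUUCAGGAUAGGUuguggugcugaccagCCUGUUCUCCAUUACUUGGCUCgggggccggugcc
Mir26a-1 lies at chr9:119031796-119031885 on the plus strand of GRCm38, in intron 5 of 7 of Ctdspl (GENCODE M21). Mir26a-2 lies at chr10:126995530-126995613, also on the plus strand, in intron 5 of 7 of Ctdsp2. Mir26b lies at chr1:74394310-74394394 on the plus strand, in intron 4 of 6 of Ctdsp1. Each hairpin has the strand of its host, and the hosts form a family of small phosphatases that act on the C-terminal domain of RNA polymerase II. miR-26a-5p is identical in Mir26a-1 and Mir26a-2, so its reads cannot be divided between these loci, and only the 3p arms tell them apart.

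miR-26a-5p was among the most abundant liver microRNAs under both diets. It had 404714, 451532 and 222585 reads in the regular libraries and 613077, 425944 and 432881 reads in the soy libraries. As a share of all microRNA reads this was 3.95%, 4.37% and 3.89% in regular and 4.80%, 4.25% and 4.25% in soy livers. It ranked 6 to 8 in every library and 8 by mean level, at 42654 CPM (counts per 1e6 reads of the TMM-scaled library size). Its counting error was small beside the spread between mice: in regular replicate 3, the shallowest library, the 95% exact binomial interval of the share ran from 3.87% to 3.90%. The level of miR-10a-5p, just above it in the order (44558 CPM), was higher than that of miR-26a-5p in 3 of 6 libraries, and that of miR-30a-5p (48271 CPM) in 5 of 6. miR-122-5p and miR-27b-3p, next below at 21205 and 20588 CPM, were lower in every library.

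miR-26b-5p, the guide of the third hairpin, was read far less. It had 25697, 27862 and 17304 reads in regular and 35297, 24325 and 26796 reads in soy libraries, a mean of 2674 CPM and rank 31. Its neighbours in the order were not clearly apart from it, since miR-125a-5p (3270 CPM) was higher in 4 of 6 libraries, and miR-101b-3p (2487 CPM) and miR-182-5p (2460 CPM) were higher in 3 and 2, but miR-29a-3p (3328 CPM) was higher in all 6. There were 12.9 to 17.5 reads of miR-26a-5p for each read of miR-26b-5p.

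The passenger arms had the lowest levels of the family. miR-26b-3p had 964, 867 and 602 reads in regular and 1177, 708 and 656 reads in soy libraries (mean 84.9 CPM, rank 115). miR-26a-2-3p had 17, 19 and 24 reads in regular and 41, 54 and 8 reads in soy libraries (mean 2.82 CPM, rank 315). miR-26a-1-3p had 29 reads in regular replicate 2 and 0 in the other 5 libraries, where 0 reads allow a level of up to 0.244 to 0.480 CPM. The order of the levels was miR-26a-5p, miR-26b-5p, miR-26b-3p and then the 2 passengers of miR-26a in all 6 libraries. Those last 2 kept no fixed order, as miR-26a-1-3p had more reads than miR-26a-2-3p in regular replicate 2 alone. Reads in just 1 library were common in the table, at 182 microRNAs, but 8 of these, miR-26a-1-3p among them, had at least 29 reads there.

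**Figure D1:**
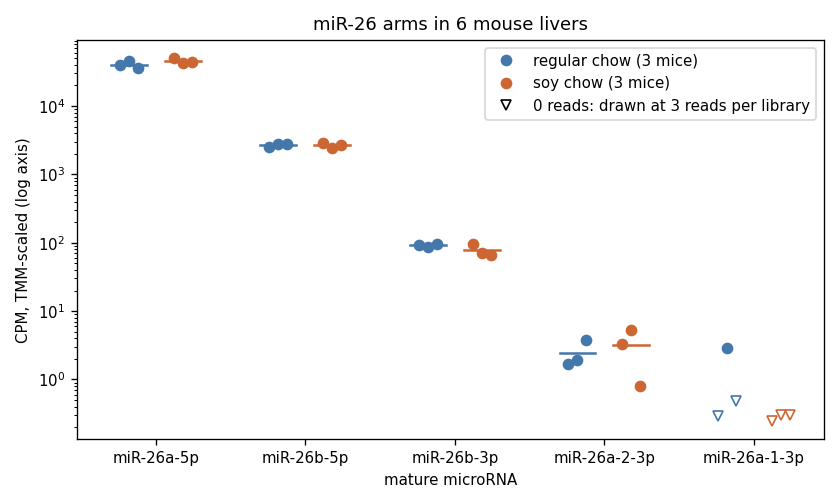
CPM (TMM-scaled, log axis) of the 5 miR-26 arms in the 3 regular and 3 soy libraries. Points are libraries, lines are group means, and open triangles mark libraries with 0 reads, drawn at the level of 3 reads. The points run from 49867 CPM for miR-26a-5p in soy replicate 1 down to 0 reads for miR-26a-1-3p in 5 libraries, and the diets overlap for every arm.

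The 5p arms together made the seed UCAAGUA one of the most used seeds of the liver. Of the 1907 names, 1623 were matched to a RefSeq sequence, and these carried 90.7% of the reads. Names without a match were left out of the seed groups. Among them were miR-122-5p (21205 CPM), miR-143-3p (20282 CPM), miR-30d-5p (18809 CPM) and miR-126a-5p (16751 CPM). Summed over matched names with the same seed, UCAAGUA took 4.19% to 4.64% of the reads in regular and 4.49% to 5.08% in soy libraries. It ranked 7 of the 527 matched seeds with reads, behind those of miR-22-3p, miR-192-5p, miR-148a-3p, let-7f-5p, miR-30a-5p and miR-21a-5p. miR-26a-5p gave 94.2% of these reads and miR-26b-5p the rest, and no other matched microRNA of the table has this seed. The let-7 seed, by contrast, was spread over 10 members with reads, of which let-7f-5p gave 76.2%. The passenger seed CUGUUCU ranked 68 among the matched seeds with a mean of 0.00879% of the reads, of which miR-26b-3p gave 96.8%. Both other matched microRNAs with that seed, miR-7039-3p and miR-6932-3p, had 0 reads in every library.

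**Figure D2:**
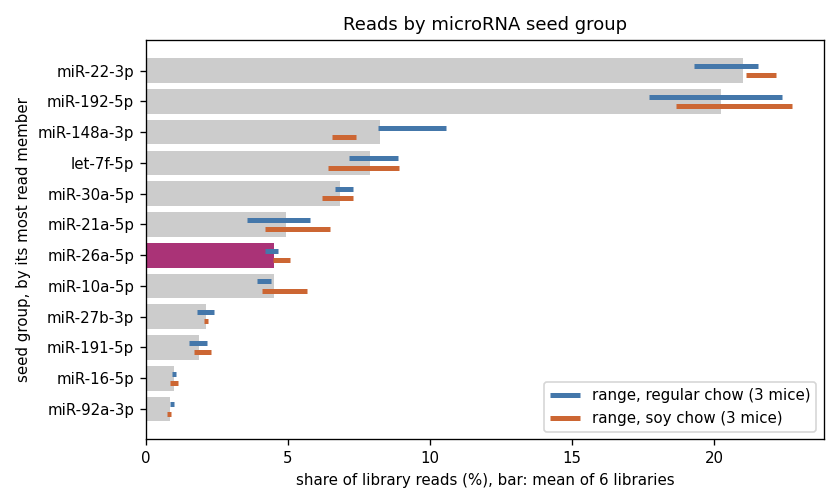
Share of library reads (%) of the 12 most read seed groups of the matched names, each named by its most read matched member. Unmatched names, such as miR-122-5p, are left out. Bars are means of 6 libraries and coloured lines are the ranges of the 3 regular and 3 soy libraries. The group of miR-26a-5p, in purple, stands at 4.52%, next to those of miR-21a-5p (4.93%) and miR-10a-5p (4.51%).

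The guide and passenger arms were far more unequal for miR-26a than for miR-26b. For Mir26b, 26.7, 32.1 and 28.7 reads of the 5p arm were counted for each read of the 3p arm in regular libraries, and 30.0, 34.4 and 40.8 in soy libraries. For miR-26a, the 5p reads stood at 9274 to 23807 per read of both 3p arms together in regular and at 7888 to 54110 in soy libraries. Thus the 3p arm made up 2.39% to 3.62% of the reads of Mir26b but 0.00185% to 0.0127% of those of the miR-26a hairpins, and these ranges did not come near each other in any library. The miR-26a value rests on 8 to 54 passenger reads per library: in soy replicate 3 the 95% exact binomial interval of the share was 0.000798% to 0.00364%.

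Both kinds of ratio occur among other liver hairpins. Of 200 pairs of matched arms with at least 100 reads, the 5p arm had more reads in 55.5%. The arm with more reads started with U in 59.0%, as both miR-26 guides do. The median log2 ratio of the arm with more reads to the other (0.5 reads added to each) was 6.83, with quartiles of 3.33 and 10.1. Mir26b stood at 4.98, with 126 pairs above it, while Mir26a-2 and Mir26a-1, each set against all miR-26a-5p reads, stood at 13.9 and 16.4, ranks 17 and 5. Among the 35 of these pairs whose leading arm had at least 100000 reads, 31 had a larger ratio than Mir26b, 6 a larger one than Mir26a-2 and 3 a larger one than Mir26a-1. Hairpins with unmatched names were left out of all these counts. Among those left out, the 5p and 3p arms had means of 21205 and 905 CPM for miR-122 and 16751 and 1775 CPM for miR-126a. They had 1864 and 5143 CPM for miR-151 and 4.03 and 20282 CPM for miR-143. The place of Mir26b with such hairpins included was not computed. A read is assigned here only by the deposited names, and whether passenger reads with other ends were left out was not tested.

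**Figure D3:**
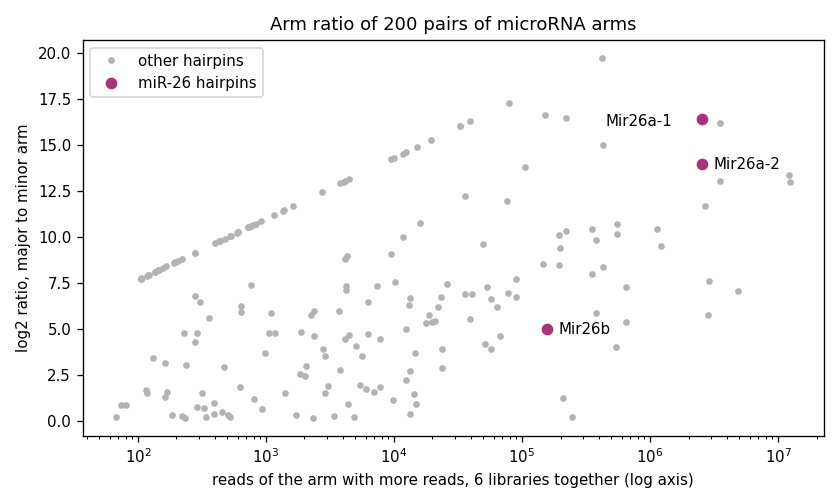
Log2 ratio of the arm with more reads to the other arm (0.5 reads added to each) against the reads of the leading arm (log axis). Shown are 200 pairs of matched arms summed over 6 libraries. The points on the straight upper edge are pairs with 0 reads of the other arm. Mir26a-1 (16.4) and Mir26a-2 (13.9) lie near the top and Mir26b (4.98) in the lower part among the well-read hairpins drawn.

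None of the miR-26 arms passed the test between the diets. miR-26a-5p had CPM values of 49867, 42383 and 43362 on soy and of 39563, 45130 and 35621 on regular chow, so that regular replicate 2 lay inside the soy range. Its mean was 40104 ± 4778 CPM on regular chow and 45204 ± 4068 CPM on soy (SD, n = 3), a log2 fold change of 0.17 ± 0.14 (SE) with an adjusted p of 0.982 by edgeR's quasi-likelihood test over all 437 microRNAs tested. The 95% interval of the fold was 0.910 to 1.40.

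For miR-26b-5p the difference between the diets was smaller than its spread within either group. Its CPM values were 2871, 2420 and 2684 on soy and 2512, 2785 and 2769 on regular chow, with means of 2659 ± 226 and 2689 ± 153 CPM (SD, n = 3). The lowest and the highest of the 6 values were both soy libraries. The log2 fold change was -0.02 ± 0.15 (SE; adjusted p = 0.982 in edgeR), and the 95% interval of the fold was 0.784 to 1.25. The sign turned without any of the regular libraries or without soy replicate 2 (0.01 to 0.047) and with no filter (0.069) or a stricter one (0.014).

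The passenger arms were measured with less precision. miR-26b-3p had CPM values of 95.7, 70.4 and 65.7 on soy and of 94.2, 86.7 and 96.3 on regular chow, with soy replicate 1 among the regular values and the other soy libraries below them. Its log2 fold change was -0.26 ± 0.23 (SE; adjusted p = 0.982 in edgeR), and the 95% interval of the fold was 0.590 to 1.19. miR-26a-2-3p had CPM values of 3.33, 5.37 and 0.801 on soy and of 1.66, 1.90 and 3.84 on regular chow, so the soy libraries held both its highest and its lowest level. Its log2 fold change of 0.37 ± 0.99 (SE; adjusted p = 0.982 in edgeR) was -0.245 without soy replicate 2, and the interval of the fold, 0.277 to 5.99, left the direction unknown. miR-26a-1-3p fell below the filter of at least 4 reads in at least 3 libraries and was not tested, so 4 of the 5 arms entered the fit.

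These results were set against the table as a whole. edgeR called 0 of 437 microRNAs at an adjusted p under 0.05 (0%), DESeq2 called 2 and limma-voom 0, and none of these calls was a miR-26 arm. At an unadjusted p under 0.05 edgeR gave 22 (5.03%), again with no miR-26 arm, for which the smallest unadjusted p was 0.241 (miR-26a-5p). The soy and regular ranges of CPM did not overlap for 56 microRNAs (12.8%), with the soy range above in 32 (7.32%) and below in 24 (5.49%), and overlapped for all 5 arms. Of the 4 arms tested, 2 had a fitted log2 fold change above 0 and 2 below, with a median of 0.08, against -0.02 over all 437.

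**Figure D4:**
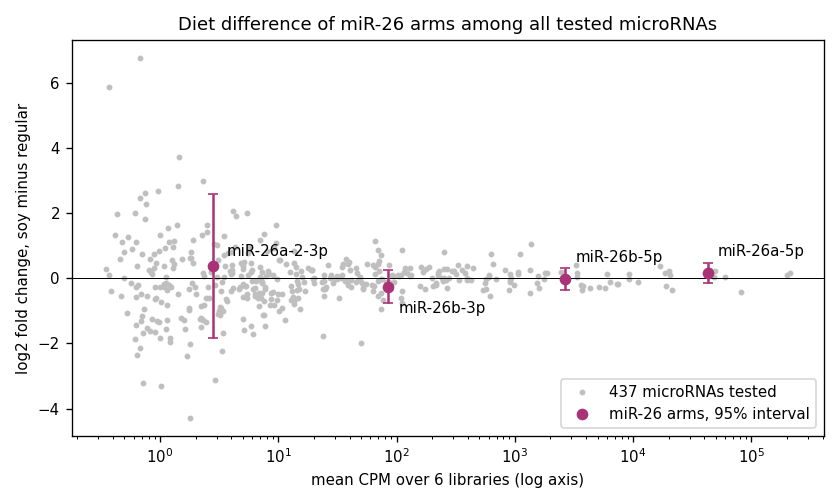
Log2 fold change (soy minus regular, edgeR) against mean CPM (log axis) of 437 microRNAs, with the 4 tested miR-26 arms in purple and their 95% intervals. All 4 intervals cross 0, and they widen from miR-26a-5p (42654 CPM) to miR-26a-2-3p (2.82 CPM).

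The guides varied little between mice of a group. The SD of log2 CPM within groups was 0.15 for miR-26a-5p and 0.11 for miR-26b-5p, against a median of 0.55 over the 437 tested, and 6.41% and 2.29% of these had a smaller one. Well-read microRNAs vary less as a class. Among the 45 with a mean of at least 1000 CPM, whose median SD was 0.21, miR-26b-5p ranked 6 and miR-26a-5p 13 from the steadiest. The SD was 0.21 for miR-26b-3p and 0.88 for miR-26a-2-3p.

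Ratios within a library do not depend on the scaling between libraries, and they were set side by side with exact permutation tests, two-sided, over the 20 assignments of 3 libraries against 3, for which the smallest p is 0.1. The ratio of miR-26a-5p to miR-26b-5p was 17.4, 17.5 and 16.2 in soy and 15.7, 16.2 and 12.9 in regular livers. The soy value of replicate 3 fell just under that of regular replicate 2, and the groups overlapped there alone (log2 difference 0.19, exact p = 0.2). The ratio of miR-26b-5p to miR-26b-3p averaged 35.1 ± 5.46 in soy and 29.2 ± 2.77 in regular livers (SD, n = 3; log2 difference 0.26, exact permutation p = 0.2), again with overlap.

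The other 4 comparisons of this kind gave p-values that were no smaller. The share of miR-26a-5p in all reads averaged 4.43% ± 0.320 in soy and 4.07% ± 0.264 in regular livers (SD, n = 3; exact permutation p = 0.3), and that of all 5 arms 4.70% ± 0.335 and 4.35% ± 0.258 (exact permutation p = 0.3). The log2 ratio of miR-26a-5p to its passengers was 14.1 ± 1.37 in soy and 13.6 ± 0.768 in regular livers (exact permutation p = 0.7), a difference of 0.53 that became -0.219 without soy replicate 3. The log2 ratio of miR-26a-1-3p to miR-26a-2-3p differed by -2.36 (exact permutation p = 0.4), but it is set by the added 0.5 reads in the 5 libraries with 0 reads of miR-26a-1-3p, and it was -0.372 without regular replicate 2. Over these 6 tests the smallest Benjamini-Hochberg value was 0.45.

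**Figure D5:**
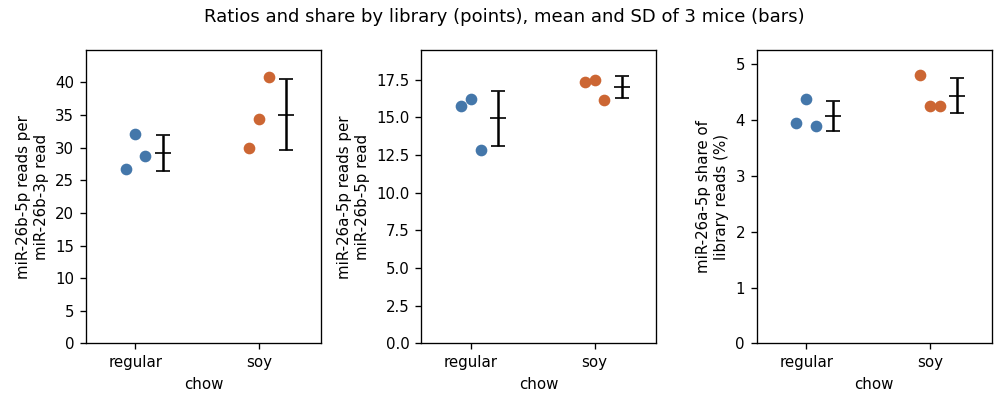
Reads of miR-26b-5p per read of miR-26b-3p, reads of miR-26a-5p per read of miR-26b-5p, and share of miR-26a-5p in library reads (%), for 3 regular and 3 soy libraries. Points are libraries and bars give the mean and SD of 3 mice. The means are 29.2 and 35.1, 14.9 and 17.0, and 4.07% and 4.43% (regular and soy), and in each panel the groups overlap.

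The profiles of the 2 guides across the 6 libraries were not alike, with a Pearson correlation of log2 CPM of 0.33. Of the 109 microRNAs with a mean of at least 100 CPM, the closest to miR-26a-5p were miR-24-2-5p (0.98), miR-181c-5p (0.90) and miR-29a-3p (0.90), and the closest to miR-26b-5p were miR-31-5p (0.82), miR-16-5p (0.79) and miR-140-3p (0.71). These correlations are descriptions over 6 libraries of mixed diet that share their scaling, and the named ones were picked for high values out of the 109. The arms of the miR-26b hairpin correlated at 0.45 with each other, and miR-26a-5p and its passenger miR-26a-2-3p at -0.11.

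Lists of microRNAs with related roles, chosen with earlier results of these data known, are described by their fitted values and shares. In the fit above edgeR called 0 of 437 microRNAs, so 0 calls in a list say nothing about that list. Over all 437 tested, 48.5% had a fitted value above 0. Of 23 microRNAs tied to hepatic insulin action and lipids, 21 were tested. Of the 21, 14 had a fitted value above 0 and 7 below, with 0 called by edgeR. The median log2 fold change was 0.11, against -0.02 over all tested. Together the 23 took 19.6% to 21.5% of soy and 22.2% to 23.5% of regular reads, lower on soy without overlap, although most fitted values lay above 0. Abundant members weigh most in such a sum, and miR-148a-3p alone averaged 70060 CPM on soy and 94764 CPM on regular chow. The most abundant members of this list were miR-148a-3p, a hepatocyte microRNA that lowers the LDL receptor (-0.44 ± 0.15 SE; adjusted p = 0.728 in edgeR), and miR-21a-5p (0.22 ± 0.19 SE). Of 29 microRNAs known to restrain the growth of liver cells, all tested, 19 lay above 0 and 10 below, with 0 called by edgeR and a median of 0.05. They included miR-22-3p (0.16 ± 0.10 SE), let-7f-5p (0.04 ± 0.18 SE) and the member of smallest p, miR-145a-5p (-0.96 ± 0.22 SE; adjusted p = 0.295 in edgeR), which DESeq2 and edgeR with the replicate block called. All signs are soy minus regular, with the groups as the sample labels and the column names give them.

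Hepatocyte microRNAs made up a large part of the reads, and the summed shares of leukocyte and endothelial markers did not overlap between the diets. Ranges of CPM did not overlap for 12.8% of single tested microRNAs. That is another measure than a summed share, for which no such background was computed. The 4 hepatocyte microRNAs together took 28.0% to 32.2% of soy and 29.1% to 35.0% of regular reads, with miR-192-5p (0.11 ± 0.15 SE) and miR-148a-3p as the most abundant. The 6 leukocyte and Kupffer cell microRNAs took 0.271% to 0.348% of soy and 0.214% to 0.229% of regular reads, without overlap. Of these 6, 5 had a fitted value above 0, among them miR-146a-5p (0.26 ± 0.18 SE), miR-142a-5p (0.75 ± 0.26 SE) and miR-150-5p (0.86 ± 0.25 SE, adjusted p = 0.696 in edgeR). The other was miR-142a-3p, from the same hairpin as miR-142a-5p, at -0.07 ± 0.48 (SE). None of the 6 passed in that fit, but edgeR with no filter called miR-142a-5p and miR-150-5p, and with the replicate block it called miR-142a-5p.

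The 2 endothelial microRNAs, both arms of miR-126a, took 2.0% to 2.07% of soy and 1.58% to 1.74% of regular reads. Most of this sum was miR-126a-5p (mean 16751 CPM), at 0.37 ± 0.13 (SE), while miR-126a-3p (1775 CPM) stood at -0.01 ± 0.18. The shares overlapped for the 4 mesenchymal microRNAs (1.82% to 2.39% of soy and 1.67% to 2.36% of regular reads). Of these 4, 2 had a fitted value above 0, miR-143-3p (0.23 ± 0.18) and miR-199a-5p (0.17 ± 0.23). The 2 below 0 were miR-214-3p (-0.33 ± 0.34) and miR-145a-5p (-0.96 ± 0.22). Shares of the 3 erythroid microRNAs overlapped too (0.121% to 0.122% of soy and 0.0717% to 0.159% of regular reads). Here miR-451a (0.12 ± 0.28) and miR-144-3p (0.72 ± 0.38) lay above 0 and miR-486a-5p (-0.31 ± 0.27) below. Of the 3 muscle microRNAs, which took at most 0.00118% of any library, 1 had 0 reads throughout and 1 was tested (miR-133a-3p, 0.35 ± 0.59). The part of other cell types in the miR-26 values was not tested.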

How the data were processed

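Total liver RNA was made into libraries with a TruSeq small RNA kit and sequenced as single-end reads of 75 bp on an Illumina NextSeq, per the labels. The deposited counts are whole reads per mature microRNA and library, without normalization, as the authors assigned them. Which aligner, build and miRBase release they used is not given in the sources used. The deposited log2 values were scaled by the authors and are absent below 4 reads (0 mismatches). Their factors followed library totals to a relative deviation of 6.7e-16, although a DESeq2 geometric mean is named as the scaling in the study. 0 sample columns were left unused.

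Libraries held 5727546 to 12762916 reads. No molecular identifiers were used, so the exact binomial intervals of the shares cover the counting of reads only. The intervals of the fold changes come from the edgeR fit and also take in the spread between mice. Replicates are separate mice, and counts of any 2 differed by a chi-square of at least 253.2 per degree of freedom, so none looked like 1 library deposited again.

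Those microRNAs that reached 4 reads in 3 or more of the 6 libraries were tested by edgeR 4.0.16 (R 4.3.3; TMM, quasi-likelihood, no covariate, Benjamini-Hochberg threshold 0.05). DESeq2 1.42.0, limma 3.58.1, other scalings and filters, the replicate block and leaving out each library were alternatives. The fits were tested on simulated data. Ratios used log2 values with 0.5 reads added. The members and lists were chosen with earlier results of these data known. Named microRNAs were the 5 arms, their neighbours in level, the 3 closest profiles of each guide, those sharing a seed, and 2 abundant members and the member of smallest p of each list. Members with a fitted value below 0 were also named for the leukocyte, mesenchymal and erythroid lists. Sequences are from RefSeq (GRCm38.p6) and introns from GENCODE M21 (GRCm38), which need not match the authors' reference.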

Additional observations from a re-analysis of the deposited data

How the results depend on the processing

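The fitted values of miR-26a-5p and miR-26b-3p kept their direction under all 14 alternatives each, and no arm passed the threshold under any. Leaving out each library gave log2 fold changes of 0.096 to 0.266 for miR-26a-5p, -0.441 to -0.153 for miR-26b-3p, -0.075 to 0.047 for miR-26b-5p and -0.245 to 0.86 for miR-26a-2-3p. miR-26b-5p also turned to 0.069 with no filter and to 0.014 with at least 10 reads in all 6 libraries, where miR-26a-2-3p could not be fitted. In place of the 0 microRNAs called by edgeR, DESeq2 called 2 (miR-145a-5p and miR-455-3p), edgeR with no filter 8 (miR-142a-5p and miR-150-5p among them) and edgeR with the replicate block 5 (miR-142a-5p, miR-145a-5p, miR-375-3p, miR-215-5p and miR-455-3p). The replicate numbers share only a number: deviations of same-numbered libraries correlated at -0.107 to 0.00936. Leaving out any library, edgeR called 0. With the block, miR-26a-5p stood at 0.176 and miR-26b-5p at -0.018. Pairing by replicate number cannot change the mean difference of the ratios and shares. Their p by sign-flip permutation was 0.25 or more, where 0.25 is the smallest that 3 pairs allow. Adjusted p ranged from 0.59 to 1 for miR-26a-5p, 0.94 to 1 for miR-26b-5p, 0.958 to 1 for miR-26a-2-3p and 0.725 to 1 for miR-26b-3p. Without each library the group difference ranged from 0.18 to 0.516 percentage points for the share of miR-26a-5p (0.926 as a share of the reads without miR-22-3p and miR-192-5p), 0.156 to 0.498 for that of all 5 arms (0.92 likewise), 0.142 to 0.365 (log2) for the miR-26b arm ratio, 0.09 to 0.256 for the guide ratio, -0.219 to 1.13 for the miR-26a arm ratio and -3.48 to -0.372 for the passenger ratio. miR-26a-1-3p gave no main value, and its ratio could not be computed without a pseudocount. The causes were not tested. Depth limits the miR-26a passengers, at 8 to 54 reads together.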
